A study of Homo sapiens with 6 samples.

Results

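Matrix proteases, their tissue inhibitors and the urokinase system are described here in A549, a line of human lung adenocarcinoma cells. The 9 genes MMP1, MMP2, MMP14, MMP15, TIMP1, TIMP2, TIMP3, PLAU and PLAUR were taken by gene symbol from a table of 58302 genes, and each symbol had 1 row. RNA was sequenced from 3 cultures transfected with SNHG5, a long non-coding RNA that hosts small nucleolar RNAs, and from 3 transfected with Vector. The labels call the 3 libraries of each group biological replicates. All 6 libraries come from the same line, grown in RPMI medium with fetal bovine serum. The labels do not give the construct, the time after transfection or whether clones were picked. The series title concerns cell migration and invasion, to which breakdown of the matrix belongs.

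Matrix metalloproteinases (MMPs) are zinc-dependent enzymes made as inactive precursors, whose propeptide must be removed before they cut collagens and other matrix proteins. TIMPs bind the active site of MMPs and block it. Urokinase, encoded by PLAU, binds its receptor PLAUR on the cell surface and turns plasminogen into plasmin, which degrades fibrin and activates several MMP precursors. RNA sequencing measures the transcripts and not the active enzymes, which are also set by activation, inhibition and clearance of the proteins.

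Library totals ran from 13378079 to 16999604 counts. SNHG5 stood at 153, 126.5 and 62.9 CPM (the counts scaled to a common library total after TMM normalization) in the SNHG5 libraries 1, 2 and 3, against 61.0, 101.3 and 55.1 CPM in vector libraries 1, 2 and 3. The library labelled SNHG5 3 therefore held less SNHG5 than vector 2, and the groups overlapped (edgeR adjusted p 0.746). Every direction below is between libraries as labelled. Epithelial and A549 markers summed to 8816 to 13209 CPM in SNHG5 libraries and 12478 to 16268 CPM in vector libraries, and their part in the results was not tested. The 5 leukocyte markers summed to 27.4 to 39.4 CPM in SNHG5 libraries and 75.4 to 93.1 CPM in vector libraries, nearly all of it CD68, which encodes a lysosomal protein. The leukocyte markers PTPRC, CD3E and LYZ were listed at 0 in all libraries, as were the endothelial markers CDH5 and KDR. In bulk RNA, fewer cells of a type and less RNA per cell cannot be told apart.

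None of the 8 genes with enough counts to be tested was called different between SNHG5 and vector libraries, and MMP1 had too few counts. SNHG5 itself was not called either (edgeR adjusted p 0.746), so the lack of a call does not show that a gene was unchanged. Of the 8, 0 passed edgeR's quasi-likelihood test at an adjusted p of 0.05, against 0.128% of the 15631 genes tested (0.0256% higher and 0.102% lower in SNHG5 libraries). An unadjusted edgeR p under 0.05 was also reached by 0 of the 8, against 6.49% of all genes. The log2 fold changes ran from -0.50 for TIMP3 to 0.62 for PLAU, with edgeR adjusted p from 0.746 to 0.952. Their median was -0.22, beside 0.01 over all genes tested, with 2 fitted higher and 6 fitted lower in SNHG5 libraries, where 49.3% of all genes were fitted lower. DESeq2 and limma-voom also called 0 of the 8. With the replicate number as a block, edgeR called 0 of the 8 against 0.467% of all genes, and PLAU was the 1 gene with an unadjusted p under 0.05 (p 0.0451, adjusted p 0.537), against 9.29% of all genes.

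**Figure D1:**
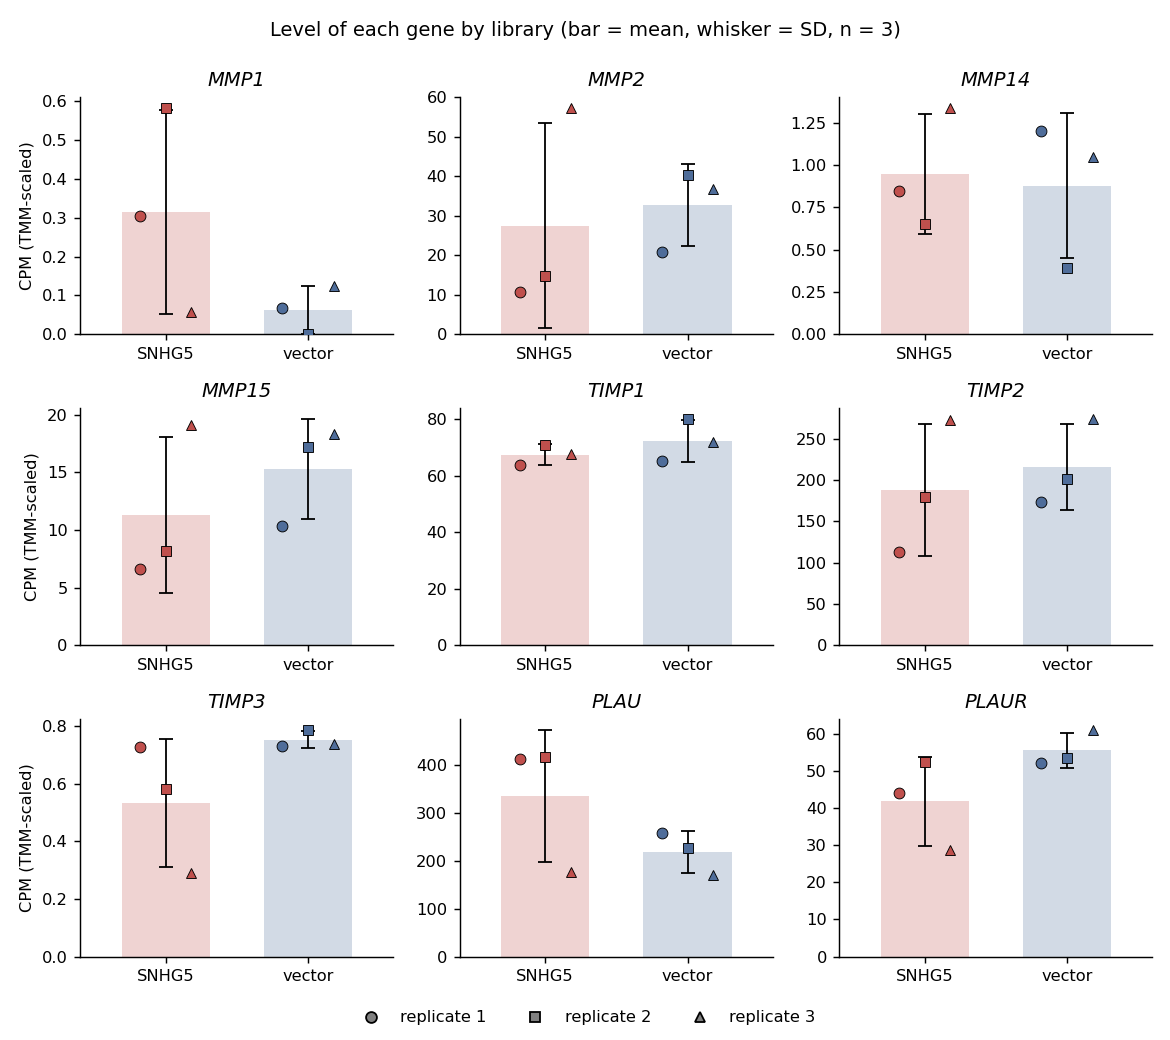
CPM of the 9 genes (vertical axis, linear from 0, with its own range for each gene) in the SNHG5 and vector libraries. Points are libraries, with a shape for each replicate number, and bars and whiskers the mean and SD of 3 libraries; the groups overlap in all panels but TIMP3, at 0.291 to 0.728 CPM in SNHG5 libraries and 0.733 to 0.787 CPM in vector libraries.

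MMP2 encodes gelatinase A, which cuts denatured collagen and basement membrane collagen. It (ENSG00000087245) lies on chromosome 16, 55389700 to 55506691, plus strand (GRCh38, as are the coordinates of all genes here, which match GENCODE release 29). MMP2 held 10.6, 14.7 and 57.3 CPM in SNHG5 libraries 1, 2 and 3, against 20.9, 40.3 and 36.8 CPM in vector libraries 1, 2 and 3. SNHG5 1 and 2 were the lowest of the 6 libraries and SNHG5 3 the highest, so that the vector libraries lay inside the range of the SNHG5 group. The means were 27.6 ± 25.9 CPM in SNHG5 libraries and 32.7 ± 10.4 CPM in vector libraries (SD, n = 3 each), a log2 fold change of -0.24 (SE 0.61, edgeR adjusted p 0.91). Without SNHG5 3 it was -1.37 (edgeR adjusted p 0.119), and without SNHG5 1 it turned to 0.14.

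The 8 fibroblast markers summed to 6.13 to 24.9 CPM in SNHG5 libraries and 11.8 to 23.0 CPM in vector libraries, and 4 of them had enough counts to be tested. COL1A1, a collagen gene that makes up much of the sum, had 31, 44 and 282 counts in SNHG5 libraries 1, 2 and 3 and 105, 106 and 230 counts in vector libraries 1, 2 and 3. THY1 was also highest in SNHG5 3, with 11, 6 and 55 counts in SNHG5 libraries and 14, 24 and 41 counts in vector libraries. COL3A1 was highest in vector 3, with 33, 21 and 65 counts in SNHG5 libraries and 36, 31 and 74 counts in vector libraries. LUM went another way, with 15, 20 and 13 counts in SNHG5 libraries and 25, 19 and 24 counts in vector libraries, and PDGFRA had 9, 6 and 4 counts in SNHG5 libraries and 3, 0 and 1 counts in vector libraries. PDGFRB had at most 7 counts in a library, and COL1A2 and DCN had 2 counts in 1 library each (SNHG5 3 and SNHG5 1) and 0 elsewhere. The part of these markers in the MMP2 values was not tested.

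MMP15 and MMP14 encode membrane-type MMPs, which are anchored in the plasma membrane. MMP15 (ENSG00000102996, chromosome 16, 58025566 to 58046901, plus strand) held 6.61, 8.22 and 19.1 CPM in SNHG5 libraries 1, 2 and 3, against 10.3, 17.2 and 18.4 CPM in vector libraries 1, 2 and 3. Its order over the libraries was close to that of MMP2, with SNHG5 1 and 2 lowest and SNHG5 3 highest. Its log2 fold change was -0.43 (SE 0.43, edgeR adjusted p 0.79), -1.04 without SNHG5 3 (edgeR adjusted p 0.149) and -0.16 without SNHG5 1. Having SNHG5 1 and 2 as the lowest of the 6 libraries was also seen in 21.0% of all genes tested.

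MMP14 encodes MT1-MMP, the main activator of the MMP2 precursor, which it holds at the cell surface through TIMP2. It (ENSG00000157227) lies on chromosome 14, 22836557 to 22849027, plus strand, and was close to the limit of detection. There were 14, 9 and 23 counts in SNHG5 libraries 1, 2 and 3, against 18, 6 and 17 counts in vector libraries 1, 2 and 3. The ratio of summed counts per total was 1.13, with a 95% exact interval of 0.727 to 1.77 that covers counting error only. The log2 fold change of 0.12 (SE 0.52, edgeR adjusted p 0.952) turned to -0.23 without vector 2 and to -0.22 without SNHG5 3.

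MMP1 encodes interstitial collagenase, which cuts fibrillar collagens. It (ENSG00000196611) lies on chromosome 11, 102789920 to 102798160, minus strand, in a cluster of MMP genes. MMP1 had 5, 8 and 1 counts in SNHG5 libraries 1, 2 and 3, against 1, 0 and 2 counts in vector libraries 1, 2 and 3, too few for the filter on low counts. Per total count this was 4.71 times as much in SNHG5 libraries (95% exact interval 1.32 to 25.6, counting error only). With no filter the log2 fold change was 2.12 (SE 1.09, edgeR adjusted p 0.739).

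The neighbours of MMP1 were looked at after their values were seen. The cluster holds 9 of the 23 listed MMP genes, from MMP7 to MMP13, within 435.2 kb, and MMP20 and MMP27 had 0 counts in every library, while MMP8 had 2 counts, both in SNHG5 1. MMP3, encoding stromelysin-1, had 23, 12 and 2 counts in SNHG5 libraries 1, 2 and 3, against 2, 3 and 0 counts in vector libraries 1, 2 and 3. MMP10, encoding stromelysin-2, had 9, 10 and 0 counts in SNHG5 libraries and 4, 1 and 2 counts in vector libraries. MMP12, encoding macrophage elastase, had 4, 6 and 0 counts in SNHG5 libraries and 0, 1 and 0 counts in vector libraries. Thus MMP1, MMP3, MMP10 and MMP12 had most of their reads in SNHG5 1 and 2, while SNHG5 3 had between 0 and 2 counts of each. Such a split is common, as SNHG5 1 and 2 were together the highest or together the lowest in 41.1% of all genes tested. MMP1, MMP3, MMP10 and MMP12 had too few counts to be among those tested.

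MMP13, encoding collagenase-3, stood the other way round. It had 0, 2 and 2 counts in SNHG5 libraries 1, 2 and 3, against 8, 9 and 21 counts in vector libraries 1, 2 and 3. Per total count that was a ratio of 0.106 (95% exact interval 0.0276 to 0.295, counting error only). With no filter, edgeR gave an adjusted p of 0.281 for MMP13 and 0.739 for MMP3, MMP10 and MMP12, so that none of the cluster passed. MMP7, encoding matrilysin, was the only tested gene of the cluster and was highest in vector 2, at 53.8 CPM against 10.5 to 23.0 CPM in the other libraries.

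TIMP1 (ENSG00000102265, chromosome X, 47582313 to 47586789, plus strand) encodes a secreted inhibitor of many MMPs, and its 6 libraries lay close together. It held 63.7, 71.0 and 67.6 CPM in SNHG5 libraries 1, 2 and 3, against 65.2, 79.9 and 71.7 CPM in vector libraries 1, 2 and 3. The highest SNHG5 library stood 1.11 times above the lowest, and the highest vector library 1.23 times above the lowest. Its log2 fold change was -0.10 (SE 0.17, edgeR adjusted p 0.868), and leaving out 1 library gave values between -0.17 and -0.02.

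TIMP2 (ENSG00000035862, chromosome 17, 78852977 to 78925387, minus strand) inhibits MMPs and also takes part in the activation of the MMP2 precursor by MT1-MMP. It held 114, 179 and 273 CPM in SNHG5 libraries 1, 2 and 3, against 174, 201 and 274 CPM in vector libraries 1, 2 and 3. SNHG5 1 was the lowest library, while SNHG5 3 and vector 3 were the highest and lay side by side. Its log2 fold change was -0.20 (SE 0.33, edgeR adjusted p 0.866), -0.56 without SNHG5 3 and 0.06 without SNHG5 1. It shares 198 exon bases with CEP295NL on the same strand, which had 15 to 36 counts per library.

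TIMP3 (ENSG00000100234, chromosome 22, 32801701 to 32863043, plus strand) encodes the inhibitor that binds to the matrix. It had 12, 8 and 5 counts in SNHG5 libraries 1, 2 and 3, against 11, 12 and 12 counts in vector libraries 1, 2 and 3. In CPM every SNHG5 library lay below every vector library, at 0.728, 0.582 and 0.291 CPM in SNHG5 libraries and 0.733, 0.787 and 0.739 CPM in vector libraries, though SNHG5 1 lay 0.01 below vector 1 on the log2 scale. It was the 1 gene of the 8 whose groups did not overlap, against 7.52% of all genes in the same direction. Its log2 fold change was -0.50 (SE 0.46, edgeR adjusted p 0.777), -0.80 without SNHG5 1 and -0.19 without SNHG5 3, and the ratio of summed counts had a 95% exact interval of 0.414 to 1.24.

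PLAU (ENSG00000122861), on chromosome 10, 73909177 to 73917497, plus strand, had the highest summed counts of the 9 genes. It held 411, 416 and 177 CPM in SNHG5 libraries 1, 2 and 3, against 257, 226 and 169 CPM in vector libraries 1, 2 and 3. SNHG5 1 and 2 lay above all other libraries, and such a split, with both at the top or both at the bottom, was seen in 41.1% of all genes tested. SNHG5 3 lay between vector 3 and vector 2. The means were 335 ± 137 CPM in SNHG5 libraries and 217 ± 44.5 CPM in vector libraries (SD, n = 3 each). The log2 fold change of 0.62 (SE 0.35) had an edgeR adjusted p of 0.746, and leaving out 1 library gave values between 0.43 and 0.93 (0.93 without SNHG5 3, edgeR adjusted p 0.113). PLAU was higher in the SNHG5 library of 3 of 3 pairs of equal number, with log2 differences of 0.68, 0.88 and 0.06, as were 17.1% of all genes. Its exons share 916 bases with C10orf55 on the opposite strand, which had 12 to 26 counts per library, and the kit does not mark strand.

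PLAUR (ENSG00000011422), on chromosome 19, 43646095 to 43670547, minus strand, held 44.0, 52.5 and 28.7 CPM in SNHG5 libraries 1, 2 and 3, against 52.2, 53.5 and 60.9 CPM in vector libraries 1, 2 and 3. SNHG5 3 was the lowest library by far, and SNHG5 2 reached the level of vector 1. Its log2 fold change was -0.41 (SE 0.25, edgeR adjusted p 0.746), and -0.20 without SNHG5 3. PLAUR was lower in 3 of 3 pairs, by log2 differences of -0.25, -0.03 and -1.09, as were TIMP1, TIMP2 and TIMP3, against 17.7% of all genes. The smallest differences of the TIMPs were near 0, at -0.03 (TIMP1, pair 1), -0.006 (TIMP2, pair 3) and -0.01 (TIMP3, pair 1). SNHG5 3 was thus low in both PLAU and PLAUR within its group, while it was high in MMP2, MMP15 and TIMP2.

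**Figure D2:**
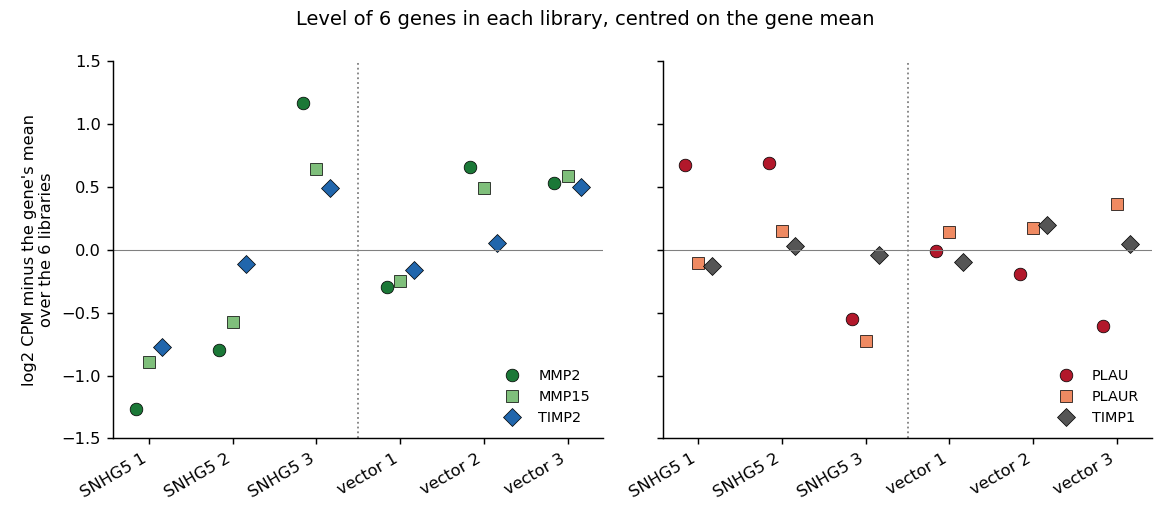
Log2 CPM of 6 genes in each library, minus the gene's mean over the 6 libraries (vertical axis, log2 units), with SNHG5 libraries left of the dotted line and vector libraries right of it. MMP2 ran from 10.6 CPM in SNHG5 1 to 57.3 CPM in SNHG5 3, PLAU was highest in SNHG5 1 and 2 (411 and 416 CPM), and TIMP1 stayed between 63.7 and 79.9 CPM.

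The range within each group is given as a description with no test. Over the 8 tested genes, the highest SNHG5 library stood a median of 2.38 times above the lowest, beside 1.54 times over all genes. For vector libraries the medians were 1.55 times over the 8 genes and 1.51 times over all genes. The widest gene within the SNHG5 group was MMP2, at 5.40 times there and 1.93 times within the vector group. Within the vector group it was MMP14, at 2.04 times among SNHG5 libraries and 3.05 times among vector libraries, and TIMP1 also varied more among vector libraries. Within pairs 1, 2 and 3 the log2 difference of MMP2 (SNHG5 over vector) was -0.97, -1.46 and 0.64, and that of MMP15 was -0.64, -1.06 and 0.06. Being lower in pairs 1 and 2 and higher in pair 3 was seen in 18.2% of all genes. SNHG5 3 was the highest library for MMP2, MMP14 and MMP15 and the lowest for PLAUR and TIMP3, and it was the highest or the lowest in 34.4% of all genes.

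**Figure D3:**
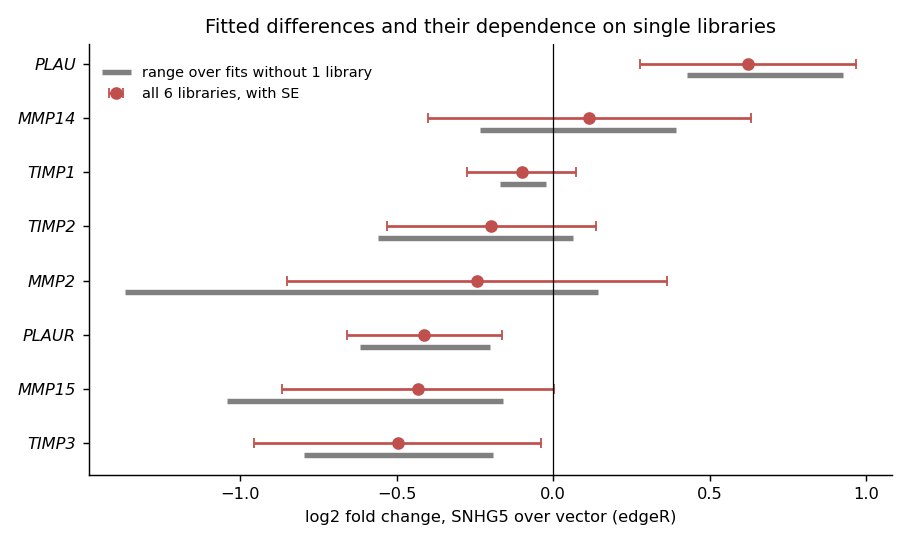
Fitted log2 fold change (SNHG5 over vector) of the 8 tested genes, with points and whiskers for the edgeR value and its SE over all 6 libraries and grey bars for the range over the fits without 1 library. MMP2 has the widest range, from -1.37 to 0.14, and TIMP1 the narrowest, from -0.17 to -0.02.

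The promoters of 6 of the 9 genes were found in the RefSeq table (GRCh38.p14), with 2 starts for PLAU. MMP1, MMP2 and TIMP2 had no entry. The 250 bases before each start were searched on both strands for TGANTCA, the palindromic letters of an AP-1 site, for AGGAAG, an ETS-type site, and for GGGCGG, a GC box. These letters were held by 6.57%, 28.7% and 42.6% of 35116 promoter windows of the same length, and no matches overlapped each other. Shown are PLAU and MMP15, whose log2 CPM ran opposite over the 6 libraries (Pearson r -0.95, a description), PLAUR as the receptor of PLAU, and TIMP1, which varied little. They run 5′ to 3′ on the gene's strand, with matches in capitals, and leave out bases that GENCODE annotates as exon of the gene, except for PLAUR, where 30 bases around the AP-1 letters are shown. Matches within the bases left out are counted but not seen here.
PLAU, second start, chr10:73910882-73911103, plus strand: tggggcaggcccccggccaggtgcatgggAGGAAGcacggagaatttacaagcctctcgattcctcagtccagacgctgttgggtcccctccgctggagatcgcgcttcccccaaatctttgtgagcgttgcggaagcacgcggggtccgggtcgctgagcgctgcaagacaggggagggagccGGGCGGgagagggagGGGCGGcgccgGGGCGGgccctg
MMP15, chr16:58025504-58025565, plus strand: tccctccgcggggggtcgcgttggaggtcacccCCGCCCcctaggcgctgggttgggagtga
PLAUR, chr19:43670338-43670367, minus strand: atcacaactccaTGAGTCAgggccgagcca
TIMP1, chrX:47582186-47582312, plus strand: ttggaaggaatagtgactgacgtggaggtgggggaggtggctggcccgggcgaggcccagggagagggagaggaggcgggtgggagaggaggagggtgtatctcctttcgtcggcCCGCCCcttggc

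PLAUR was the 1 gene of the 6 with the AP-1 letters, which begin 186 bases before its RefSeq start. GENCODE annotates all 250 bases of the PLAUR window as exon of PLAUR, so these letters lie within annotated exon. GC box letters were found 3 times before the second PLAU start, 5 times for MMP15, 2 times for TIMP1, 5 times for TIMP3 and 1 time for MMP14, and 0 times for PLAUR and before the first PLAU start. The ETS-type letters were found 1 time each for the second PLAU start, TIMP1 and PLAUR. These are matches of letters in these windows and were not tested for binding.

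Levels of different genes were compared per length, by the FPKM values that the authors deposited (fragments per length of the gene and per library total). Averaged over the 6 libraries, PLAU stood at 59.6 FPKM, TIMP1 at 30.9 FPKM and TIMP2 at 21.4 FPKM. PLAUR followed at 5.64 FPKM, MMP2 at 4.15 FPKM and MMP15 at 2.89 FPKM. MMP14, TIMP3 and MMP1 were the lowest, at 0.151, 0.139 and 0.0965 FPKM. PLAU stood above TIMP1 in 6 of 6 libraries, and MMP2 above MMP15 in 6 of 6.

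Some neighbours in this order did not separate. TIMP1 lay above TIMP2 in 6 of 6 libraries by FPKM, but in 4 of 6 when the length was the union of annotated exons. MMP14 lay above TIMP3 in 3 of 6 libraries by FPKM and in 5 of 6 by union length, and PLAUR above MMP2 in 5 of 6, the exception being SNHG5 3. Among neighbours, the ranges over the libraries were apart only between TIMP2 and PLAUR and between MMP15 and MMP14. The inhibitors TIMP1 and TIMP2 were thus each above MMP2, MMP15, MMP14 and MMP1 in every library. This did not hold for all proteases or all inhibitors. PLAU, also a protease, lay above TIMP1 in 6 of 6 libraries, and TIMP3 was among the lowest. Outside the 9 genes, MMP24 stood at 19.1 to 33.9 FPKM, which overlaps the ranges of TIMP1 and TIMP2.

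Ratios within a library do not depend on how that library was scaled. The MMP2 to TIMP2 ratio of deposited FPKM was 0.121, 0.106 and 0.273 in SNHG5 libraries 1, 2 and 3, against 0.156, 0.261 and 0.175 in vector libraries 1, 2 and 3. SNHG5 1 and 2 had the lowest ratios and SNHG5 3 the highest, as for MMP2 itself. MMP14 and MMP1 had too few counts for a ratio.

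A further 4 ratios were chosen after values had been seen. The PLAU to PLAUR ratio of FPKM was 17.3, 14.7 and 11.4 in SNHG5 libraries 1, 2 and 3, against 9.12, 7.83 and 5.15 in vector libraries 1, 2 and 3. All SNHG5 libraries lay above all vector libraries in this ratio, as they did for the ratio of PLAU to 5.70% of the 12866 other genes that had 20 counts or more in each library. The PLAU to TIMP1 ratio was 3.15, 2.86 and 1.28 in SNHG5 libraries and 1.92, 1.38 and 1.15 in vector libraries.

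The MMP2 to MMP15 ratio was 1.01, 1.13 and 1.90 in SNHG5 libraries 1, 2 and 3 and 1.28, 1.48 and 1.27 in vector libraries 1, 2 and 3. The TIMP2 to TIMP1 ratio was 0.427, 0.605 and 0.966 in SNHG5 libraries and 0.639, 0.602 and 0.914 in vector libraries. Groups overlapped in these last 3 ratios, and in that of MMP2 to TIMP2. All 5 ratios are descriptions and were given no test.

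**Figure D4:**
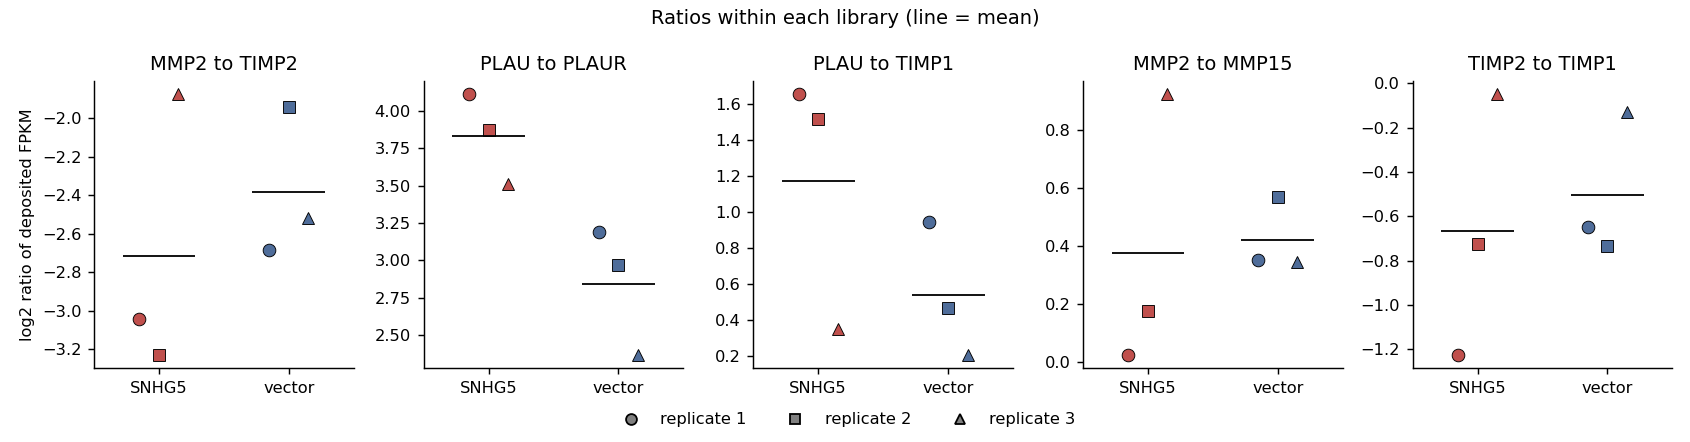
Log2 ratios of deposited FPKM within each library for 5 gene pairs (vertical axes, log2 units, not from 0), for SNHG5 and vector libraries, with lines at the group means. Groups overlap in 4 panels, and in the PLAU to PLAUR panel the SNHG5 libraries (ratios of 11.4 to 17.3) lie above the vector libraries (5.15 to 9.12).

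The genes most like each of the 6 well-counted genes were taken by Pearson correlation of log2 CPM over the 6 libraries, among 10930 genes. They are descriptions over 6 libraries that also differ in group, and 291 genes reached 0.95 with MMP2. LIMK1, an actin-regulating kinase, lay closest to MMP2 (r = 0.999), at 28.8, 33.4 and 66.5 CPM in SNHG5 libraries 1, 2 and 3 and 40.8, 55.8 and 54.3 CPM in vector libraries 1, 2 and 3. MAP4K2 and LSS followed for MMP2, and QPCTL, P4HA3 and MRC2 lay closest to MMP15. For TIMP2 they were ABCB8, PSMD3 and TUBA1A, and for TIMP1 CP, RPH3AL and MT1X.

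RABGGTB, STC1 and KRBOX4 lay closest to PLAU. STC1, which encodes the secreted glycoprotein stanniocalcin-1, held 105.5, 111.5 and 23.2 CPM in SNHG5 libraries 1, 2 and 3, against 39.2, 36.3 and 20.6 CPM in vector libraries 1, 2 and 3. PLAUR had the fewest close genes, with 2 at 0.95 or more, and PARP3, UBFD1 and RP2 came first.

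The wider families were read from 8 lists that hold 128 genes with the 9 above, of which 77 were tested. Of these 77, 0 passed edgeR over all genes tested, 0 passed DESeq2 and 0 passed limma-voom, and 4 had an unadjusted edgeR p under 0.05, beside 6.49% of all genes. The median log2 fold change of the 77 was -0.10, beside 0.01 over all genes. Groups did not overlap for 9 of the 77 (11.7%) in the lower direction and for 0 in the higher, against 7.52% and 6.04% of all genes tested. The 9 were TIMP3, MMP28, BSG, VTN, SERPINI1, ADAMTS10, CTSL, CTSS and CST3.

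Of the MMP family, 9 of 23 genes were tested, 3 fitted higher and 6 lower in SNHG5 libraries (median log2 fold change -0.24). The highest per length was MMP24, another membrane-type MMP, at 19.1 to 33.9 FPKM, although it overlaps MMP24OS on the opposite strand and the kit does not mark strand. It stood at 103 ± 15.7 CPM in SNHG5 libraries and 128 ± 18.5 CPM in vector libraries (SD, n = 3 each, edgeR adjusted p 0.748). MMP28, encoding epilysin, had the lowest p, at 0.457 ± 0.113 CPM in SNHG5 libraries and 1.21 ± 0.442 CPM in vector libraries (log2 fold change -1.37, SE 0.45, edgeR adjusted p 0.568). Its counts were few, with 7, 5 and 10 in SNHG5 libraries 1, 2 and 3 and 13, 26 and 17 in vector libraries 1, 2 and 3. MMP16 was at 0.51 on the log2 scale, and MMP7 was at -0.73, which turned to 0.44 without vector 2.

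Inhibitors and activators of MMPs were 12 tested genes of 13, with 4 fitted higher and 8 lower (median -0.15). FURIN, a convertase that activates membrane-type MMPs, was at -0.36 (SE 0.24), BSG, an inducer of MMPs, at -0.23 (SE 0.17), TFPI2, a Kunitz inhibitor of the matrix, at -0.22 (SE 0.25, but 0.04 without vector 2) and PCSK5 at -0.40 (SE 0.49). In the plasminogen list, 14 of 18 genes were tested, with 5 fitted higher and 9 lower (median -0.06). SERPINB8 was at 0.80 (SE 0.47) and LRP1, an endocytic receptor for many ligands, at 0.48 (SE 0.24). VTN, encoding vitronectin, a ligand of the urokinase receptor, was at -0.71 (SE 0.34) and SERPINI1 at -0.53 (SE 0.43). None of these 8 genes passed edgeR, with adjusted p of 0.746 or more.

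The ADAM and ADAMTS families, many of whose members shed membrane proteins or cut proteoglycans, had 9 tested genes each, with medians of 0.13 and -0.10. ADAM9 had the highest CPM of these genes, which were not compared per length. It stood at 989 ± 239 CPM in SNHG5 libraries and 673 ± 199 CPM in vector libraries (SD, n = 3 each, log2 fold change 0.56, edgeR adjusted p 0.746). ADAM19 was at -1.07 (SE 0.50), ADAM15 at -0.41 (SE 0.31) and ADAM12 at 0.17 (SE 0.21). With the replicate block ADAM19 stood at -1.07 (SE 0.20, edgeR adjusted p 0.1125). Its log2 differences within pairs 1, 2 and 3 were -1.37, -0.83 and -1.01, and 17.7% of all genes were lower in each pair. ADAMTS10 was lower in every SNHG5 library than in every vector library, as were 7.52% of all genes. It did not pass edgeR (log2 fold change -0.69, SE 0.24, adjusted p 0.647). ADAMTS7, ADAMTS13 and ADAMTS16 were at -0.33 (SE 0.33), -0.91 (SE 0.93) and -0.16 (SE 0.24). ADAMTS13 had few counts, with 0, 4 and 14 in SNHG5 libraries 1, 2 and 3 and 16, 5 and 12 in vector libraries 1, 2 and 3. Of the 14 type II transmembrane serine proteases and Kunitz inhibitors, SPINT2 was the 1 gene tested, at 0.05 (SE 0.28, with the sign turned without SNHG5 2, vector 1 or vector 3), and 7 were listed at 0 in every library.

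**Figure D5:**
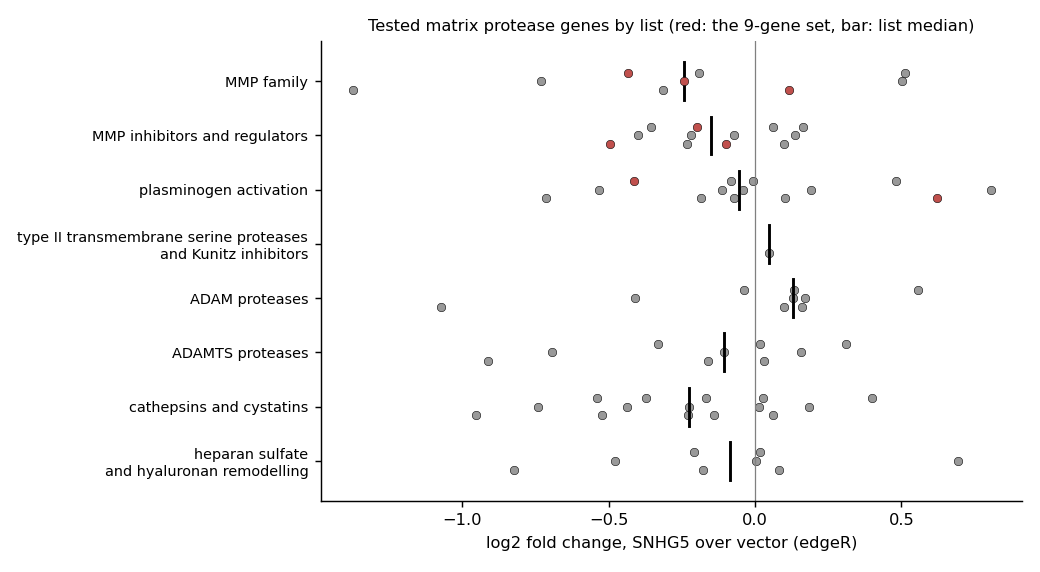
Log2 fold change (SNHG5 over vector, horizontal axis) of the tested genes in 8 lists, with the genes of the 9-gene set in red, the others in grey and a bar at each list's median. The list medians lie between -0.24 and 0.13, and no gene shown passed the edgeR threshold.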

How the data were processed

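For 3 SNHG5 and 3 vector libraries, the authors deposited gene counts, all whole numbers, together with FPKM. HISAT2, FastQC and the build GRCh38 are named in the submitters' processing notes. Not given in the sources used here: which program counted reads, and its strand setting. Each deposited FPKM was the count over the library total and a gene length, whose median ratio to the union of annotated exons was 1.52, so genes with many isoforms are understated. The TruSeq kit named in the labels' protocols does not mark strand. A floor of 3 counts was 0.175 to 0.218 CPM on TMM-scaled totals.

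The test on counts was that of edgeR 4.0.16 under R 4.3.3 (TMM factors, filterByExpr, robust quasi-likelihood, two-sided, Benjamini-Hochberg over the 15631 genes tested), and checked with DESeq2 1.42.0 and limma 3.58.1 and on simulated data. SE is the log2 fold change divided by the square root of the F statistic. Levels are CPM on TMM-scaled totals.

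The 4 ratios beyond MMP2 to TIMP2 and the neighbours of MMP1 were added after their values were seen. The 9 genes and the 8 lists were chosen with earlier results of these data known. Named list genes were up to 4 per list with the smallest p, and the most alike genes were the 3 with the highest correlation over libraries among genes whose mean log2 CPM reached 2. Deviations from the group mean had correlations of 0.35, 0.16 and 0.29 between same-numbered libraries, and of -0.34 to 0.12 between libraries of unequal number. The highest of the latter, SNHG5 2 with vector 1, was close to the 0.16 of pair 2, so that pairing by number is uncertain. The main test took no pairing, and the replicate block was an alternative that did. The remaining alternatives were RLE size factors, dropping the filter, requiring a mean count of 50, and fits without 1 library. Exact intervals are Clopper-Pearson. A planned ratio is not reported here.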

Additional observations from a re-analysis of the deposited data

How the results depend on the processing

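None of the 9 genes and none of the list genes passed the threshold in any of the 12 alternatives that tested them. MMP1 was tested in 1 alternative, with no filter, and MMP14 and TIMP3 in 11. For the other 8 genes, the lowest adjusted p over the alternatives was 0.113, for PLAU without SNHG5 3 in edgeR, beside 0.746 in the main test. With the replicate block 0 of the 8 passed, and 1 had an unadjusted p under 0.05 (PLAU, edgeR p 0.0451, log2 fold change 0.54, adjusted p 0.537), against 9.29% of all genes; the block changed no call among them. Uncalled log2 fold changes turned in sign for MMP2 without SNHG5 1 or 2 (0.14 and 0.05), for MMP14 without SNHG5 3 or vector 2 (-0.22 and -0.23) and for TIMP2 without SNHG5 1 or vector 3 (0.06 and 0.005), and among named list genes for MMP7 (0.44) and TFPI2 (0.04) without vector 2 and for SPINT2 without SNHG5 2, vector 1 or vector 3 (-0.14, -0.08 and -0.11). The stricter filter left out MMP14 and TIMP3, and among named list genes MMP16, MMP28, PCSK5, SERPINI1, ADAMTS13 and HPSE. Over all genes, 4 were higher and 16 lower in SNHG5 libraries, against 20 and 246 with DESeq2; with the replicate block 69 were lower, and with no filter 72. Without 1 library the higher genes numbered 0 to 20 and the lower 0 to 144, the largest without SNHG5 3. The causes were not tested. With the union of exons as length, mean levels were 93.7 RPKM for PLAU, 45.3 for TIMP1, 35.9 for TIMP2 and 10.9 for PLAUR, the order of the 9 staying as it was. Depth limits MMP1, MMP14 and TIMP3, with at most 23 counts per library. Among the named list genes it also limits MMP28, MMP16, SERPINI1 and ADAMTS13, with at most 26, 27, 19 and 16 counts per library.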

Other observations

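Cathepsins, lysosomal proteases that are also secreted, and their cystatin inhibitors had 15 tested genes of 19, with 5 fitted higher and 10 lower in SNHG5 libraries and a median log2 fold change of -0.23, beside 0.01 over all genes. CST3, encoding the secreted inhibitor cystatin C, held 46.7, 56.3 and 68.3 CPM in SNHG5 libraries 1, 2 and 3, against 75.6, 122 and 89.1 CPM in vector libraries 1, 2 and 3. CTSS, encoding cathepsin S, held 19.5, 21.0 and 15.7 CPM in SNHG5 libraries and 23.1, 56.1 and 29.4 CPM in vector libraries. Groups did not overlap for CST3, CTSS and CTSL, 3 of the 15, all lower in SNHG5 libraries, against 7.52% of all genes. None of these passed edgeR (adjusted p 0.583, 0.674 and 0.746). CTSL was at -0.52 (SE 0.29) and CTSC at 0.40 (SE 0.23). CD68, a lysosomal protein on the leukocyte marker list, stood at 38.3, 39.4 and 25.7 CPM in SNHG5 libraries and 75.2, 91.6 and 91.6 CPM in vector libraries, and its part in these values was not tested.

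Of the enzymes that remodel heparan sulfate and hyaluronan, 8 of 12 were tested, with 4 fitted higher and 4 lower. HAS2, a hyaluronan synthase, held 25.4, 30.4 and 7.92 CPM in SNHG5 libraries 1, 2 and 3, against 16.6, 14.4 and 8.38 CPM in vector libraries 1, 2 and 3, so that SNHG5 3 lay lowest, below all vector libraries (edgeR adjusted p 0.749). HYAL2, a hyaluronidase, was at -0.83 (SE 0.44), HPSE, encoding heparanase, at -0.48 (SE 0.44) and SULF2, a sulfatase, at -0.18 (SE 0.18).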
